A study of Mus musculus with 2 samples.

Results

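The genes described here are 30 genes of glycolysis and of the response to low oxygen, followed in every cell class of a mouse brain bearing a melanoma and of a brain without one. They were taken as a named list without a cut on measured values, though with earlier results of these data known. All 30 were found among the 55401 genes of the count files. Of these, 3 act in glucose uptake and its first phosphorylation, 8 in upper glycolysis and 6 in lower glycolysis. Another 5 handle lactate and pyruvate, and 8 are hypoxia factors and hypoxia-responsive genes.

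Glycolysis splits glucose into pyruvate and yields ATP without oxygen, and lactate dehydrogenase then turns pyruvate into lactate, which monocarboxylate transporters carry across the cell membrane. When oxygen is low, the prolyl hydroxylases that mark hypoxia-inducible factors for destruction lose activity, and the stabilised factors, Hif1a and Epas1 paired with Arnt, switch on glycolytic genes and others such as Egln3, Ankrd37 and Adm. Many tumour cells run glycolysis at a high rate even with oxygen present. In the brain, astrocytes are known for glycolysis and for passing lactate to neurons, and each cell type uses its own isozymes.

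The metastasis group consisted of C57BL/6J mice, 10 weeks old, with B16/F10-BrM cells injected into the brain; B16/F10 is a mouse melanoma line and BrM marks its brain-metastatic derivative. The naive group consisted of C57BL/6J mice of the same age whose brains held no injected tumour, according to the title. Each group was a single library of single cells, for which 3 brains were pooled and passed over beads against ACSA-2, an antigen of astrocytes, so shares of cell classes follow the enrichment as well as the tissue. The tumour was placed in the brain by injection, did not travel there through the blood, and came from 1 cell line. According to the record, the titles of the libraries were changed for each other after release while the files stayed as they were, and the groups used here are those of the present titles. Pmel, a pigment gene of melanoma cells, had 174742 UMIs over all barcodes of the metastasis library and 4774 in the naive library.

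The metastasis library held 89193669 UMIs and the naive library 69445557, and 12951 and 13181 cells passed the limits, with medians of 2816 UMIs per cell in metastasis and 2766 in naive. A UMI is a molecular tag that counts 1 captured RNA molecule. Cells were clustered and each cluster was called after a cell type only where most genes of a fixed marker list were higher in it than in the other clusters, which gave 12 classes, and 11 of them had at least 50 cells in both libraries. Melanoma-like cells numbered 681 in metastasis and 18 in naive, astrocyte-like cells 328 and 1033. All 10 melanoma markers were detected in the melanoma-like cells of both libraries, Dct at 12872 CPM in metastasis against 12253 CPM in naive, and all 10 astrocyte markers in the astrocyte-like cells, Slc1a2 at 7725 CPM in metastasis against 6615 CPM in naive. Both libraries shared 47 cell barcodes, none of them melanoma-like.

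Levels are UMIs of a gene summed over the cells of a class, scaled to 1000000 UMIs of that class (CPM). The kit counts molecules from their 3' ends, so levels of different genes are not compared with each other, only a gene with itself across classes. With 1 library in each group the spread between animals is not known, so no test was made and no p-value is given. The intervals printed are 95% intervals of the counting alone. A difference was called by size alone, at 2-fold or more with at least 20 UMIs over both sides. Fewer cells that express a gene and less of it per cell cannot be told apart in such sums.

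The stretches around the transcription start are shown for 7 genes for their contrast. Of these, 4 had their highest level in melanoma-like cells, though the interval of Slc16a3 overlapped that of macrophage/monocyte-like cells. The other 3, which are hypoxia-responsive, were at least 2-fold lower there than in the mean of the other classes. Each stretch is RefSeq sequence of build GRCm38.p6, from 250 bases before the start to 50 after it, read 5′ to 3′ on the strand of the gene. Capitals mark ACGTG and GCGTG on either strand (written CACGT and CACGC where they lie on the other strand), letters known as the core that hypoxia-inducible factors bind; CACGTG reads the same on both strands and counts once on each. Pgk1 lies at chrX:106186850-106187149 (plus strand), Ldha at chr7:46845554-46845853 (plus strand, the first of its 2 entries), Slc16a3 at chr11:120948817-120949116 (plus strand) and Tpi1 at chr6:124814109-124814408 (minus strand). Ankrd37 lies at chr8:45999801-46000100 (minus strand), Egln3 at chr12:54203825-54204124 (minus strand) and Adm at chr7:110627407-110627706 (plus strand).
Pgk1: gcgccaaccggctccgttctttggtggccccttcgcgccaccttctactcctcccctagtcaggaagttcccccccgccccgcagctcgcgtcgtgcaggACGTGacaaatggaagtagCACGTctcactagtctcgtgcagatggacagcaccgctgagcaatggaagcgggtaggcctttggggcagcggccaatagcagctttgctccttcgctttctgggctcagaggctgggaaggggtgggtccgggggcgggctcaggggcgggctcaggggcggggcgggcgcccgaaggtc
Ldha: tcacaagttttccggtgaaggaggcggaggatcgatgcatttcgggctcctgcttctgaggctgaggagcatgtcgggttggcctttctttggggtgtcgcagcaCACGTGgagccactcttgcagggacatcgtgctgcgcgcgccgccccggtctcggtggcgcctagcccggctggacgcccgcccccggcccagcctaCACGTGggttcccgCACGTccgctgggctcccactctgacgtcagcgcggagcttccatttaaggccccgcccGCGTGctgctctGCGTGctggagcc
Slc16a3: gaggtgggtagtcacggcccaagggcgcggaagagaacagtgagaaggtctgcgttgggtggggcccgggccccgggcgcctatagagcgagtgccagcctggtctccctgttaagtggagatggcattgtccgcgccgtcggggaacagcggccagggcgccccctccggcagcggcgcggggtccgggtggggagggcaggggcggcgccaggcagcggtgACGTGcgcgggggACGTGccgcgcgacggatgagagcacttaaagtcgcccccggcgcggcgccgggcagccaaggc
Tpi1: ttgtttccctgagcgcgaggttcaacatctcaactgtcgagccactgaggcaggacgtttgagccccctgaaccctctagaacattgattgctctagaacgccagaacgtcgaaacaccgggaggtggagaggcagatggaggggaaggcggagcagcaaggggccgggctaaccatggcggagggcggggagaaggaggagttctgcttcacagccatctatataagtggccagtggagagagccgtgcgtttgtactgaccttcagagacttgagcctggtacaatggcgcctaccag
Ankrd37: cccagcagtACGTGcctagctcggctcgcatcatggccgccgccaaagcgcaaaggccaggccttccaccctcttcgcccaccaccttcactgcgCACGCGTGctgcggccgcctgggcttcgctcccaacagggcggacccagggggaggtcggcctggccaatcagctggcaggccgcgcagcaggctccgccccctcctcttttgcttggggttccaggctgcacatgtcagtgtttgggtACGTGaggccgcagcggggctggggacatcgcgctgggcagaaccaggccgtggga
Egln3: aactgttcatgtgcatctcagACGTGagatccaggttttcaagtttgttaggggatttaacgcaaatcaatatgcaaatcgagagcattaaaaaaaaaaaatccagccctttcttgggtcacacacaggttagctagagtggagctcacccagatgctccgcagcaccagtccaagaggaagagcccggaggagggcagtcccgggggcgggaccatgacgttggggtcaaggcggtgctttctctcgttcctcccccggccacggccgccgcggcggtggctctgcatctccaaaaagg
Adm: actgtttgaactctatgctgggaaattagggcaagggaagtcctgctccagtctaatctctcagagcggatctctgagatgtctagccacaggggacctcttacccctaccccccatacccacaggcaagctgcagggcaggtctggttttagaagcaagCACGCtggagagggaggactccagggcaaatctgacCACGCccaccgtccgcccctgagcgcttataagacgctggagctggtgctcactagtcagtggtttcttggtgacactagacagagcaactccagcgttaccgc
The stretch of Ldha held 5 ACGTG matches and 2 of GCGTG, that of Ankrd37 2 of each, and that of Tpi1 none of either. The stretch of Adm held 2 GCGTG matches and no ACGTG, and that of Egln3 1 ACGTG. RefSeq gave stretches for 27 of the 30 genes, 40 in all, and Slc2a3, Epas1 and Ndrg1 had no entry. Of these 40, 52.5% held ACGTG and 55% GCGTG, while ACGTG was found in 19.62% and GCGTG in 32.39% of all 32851 mouse stretches of the same length. A match describes letters only and is not a binding site. Such letters were found both in genes that were highest in melanoma-like cells and in genes that were lower there.

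Melanoma-like cells held the highest levels of most glycolytic enzymes. Of the 8 hypoxia genes 5 were at least 2-fold lower there than in the mean of the other classes, as were 42.6% of all genes. Within the metastasis library, 14 of the 30 genes were at least 2-fold higher in melanoma-like cells than in the mean of the 11 other classes, against 12.6% of the 19179 genes compared, and 9 were at least 2-fold lower, against 42.6%. The median log2 ratio was 0.44 over the 30 genes and -0.62 over all genes. Above every other class were 13 genes: Gpi1, Pfkl, Aldoa, Tpi1, Gapdh, Pgk1, Pgam1, Eno1, Pkm, Ldha, Ldhb, Slc16a3 and Higd1a. Over all genes, 2007 of the 19179 compared were above every other class. Together the 30 genes made up 1.28% of the UMIs of melanoma-like cells in metastasis, while they made up between 0.310% (fibroblast-like) and 0.644% (astrocyte-like) in the other classes. Melanoma-like cells were also the deepest, with a median of 29984 UMIs per cell against 1513 to 10673 in the other classes of that library.

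Lower glycolysis, from glyceraldehyde phosphate to pyruvate, was higher for nearly every member, with 5 of 6 genes higher and a median log2 ratio of 2.22. Gapdh, the dehydrogenase of glyceraldehyde phosphate, stood at 1814 CPM (interval 1795 to 1832) in melanoma-like cells and between 197 CPM in olfactory ensheathing-like and 662 CPM in endothelial-like cells. Pgk1, phosphoglycerate kinase, stood at 1602 CPM in melanoma-like cells and between 109 CPM in fibroblast-like and 397 CPM in ependymal-like cells, so its fold over the mean of the other classes was 7.12. Pgam1, phosphoglycerate mutase, stood at 1360.4 CPM against 162 to 394 CPM, and Pkm, pyruvate kinase, at 1529 CPM against 164 to 788 CPM. None of these levels in melanoma-like cells overlapped the range of the other classes. Eno1, an enolase, stood at 242 CPM in melanoma-like cells and 159 CPM in astrocyte-like cells, the next class. Eno1 has a near-identical copy in the genome, Eno1b, that can take part of its reads (250 UMIs beside 8895 of Eno1), so its level is uncertain. Eno2, the enolase typical of neurons, was the exception, with 2.25 CPM in melanoma-like cells and a mean of 9.64 CPM elsewhere, though a median of 3.60 CPM.

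In upper glycolysis, 5 of 8 genes were higher and 2 lower. Tpi1, triosephosphate isomerase, had the largest ratio of the 30: 1666 CPM in melanoma-like cells (interval 1648 to 1683) against 108 CPM in oligodendrocyte-like to 314 CPM in mural-like cells, a fold of 7.32 over their mean. Aldoa, the aldolase found in most tissues, stood at 1434 CPM against 277 to 785 CPM, and Gpi1, glucose phosphate isomerase, at 431 CPM against 94.9 to 237 CPM. Of the phosphofructokinase subunits, Pfkl stood at 156 CPM against 19.8 to 81.0 CPM. Pfkp stood at 143 CPM in melanoma-like cells, below the 169 CPM of astrocyte-like cells, and its fold over the mean of all others was 2.15, but under 2 in 3 of the other ways of processing. Pfkm, the muscle-type subunit, stood at 14.0 CPM against a mean of 22.3 CPM, within 2-fold. The genes that were lower were Aldoc, the aldolase of astrocytes (55.9 CPM against a mean of 389 CPM, which astrocyte-like and olfactory ensheathing-like cells carried; the median of the other classes was 61.1 CPM), and Pfkfb3, whose product makes the activator of phosphofructokinase (6.17 CPM against a mean of 29.7 CPM).

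None of the 3 genes for glucose uptake and its first phosphorylation passed 2-fold over the mean of the other classes in melanoma-like cells. Hk2, the inducible hexokinase, stood at 138 CPM there and at a mean of 108 CPM in the other classes. That mean was carried by microglia-like (698 CPM) and macrophage/monocyte-like cells (252 CPM), and the median of the other classes was 22.7 CPM. Hk1, the hexokinase of most brain cells, stood at 41.2 CPM and a mean of 45.5 CPM. Slc2a3, the glucose transporter typical of neurons, stood at 6.69 CPM and 6.87 CPM.

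Among the genes of lactate and pyruvate, Ldha, the lactate dehydrogenase subunit linked to lactate production, stood at 866 CPM in melanoma-like cells and between 43.8 CPM in oligodendrocyte-like and 621 CPM in mural-like cells. Ldhb, the subunit of heart and of many brain cells, stood at 826 CPM, close above the 750.3 CPM of choroid plexus epithelium-like cells. Slc16a3, the exporter of lactate in glycolytic cells, stood at 44.2 CPM (interval 41.4 to 47.1), little above the 41.0 CPM of macrophage/monocyte-like and 40.2 CPM of microglia-like cells. Slc16a1, the more widespread lactate transporter, was lower, at 27.5 CPM against a mean of 57.5 CPM and a median of 39.1 CPM, but its ratio lay within 2-fold under 7 of the other ways of processing. Pdk1, the kinase that shuts off pyruvate dehydrogenase, stood at 21.7 CPM against a mean of 32.0 CPM, within 2-fold.

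Of the 8 hypoxia genes 1 was higher and 5 were lower, against 12.6% and 42.6% of all genes, and the median log2 ratio was -3.05, against -0.62 over all genes. Hif1a itself, the regulated subunit of the hypoxia-inducible factor, was within 2-fold, at 160.2 CPM in melanoma-like cells and a mean of 112 CPM elsewhere. Epas1, its relative of vessels, was 49.7-fold lower, with 1.43 CPM in melanoma-like cells and a mean of 71.3 CPM elsewhere (median 38.6 CPM). Egln3, a prolyl hydroxylase and target of the factors, gave 4 UMIs in all melanoma-like cells (0.191 CPM, interval 0.0521 to 0.490), and Adm, a vasodilator peptide, gave 7 UMIs (0.335 CPM). The median of the other classes was 3.45 CPM for each of them, beside means of 3.29 CPM (Egln3) and 8.98 CPM (Adm). Ankrd37, a small target of Hif1a, stood at 3.20 CPM, against a mean of 15.97 CPM and a median of 7.51 CPM. Endothelial-like cells (97.1 CPM) carried that mean. Ndrg1, a stress-induced gene, stood at 13.8 CPM against a mean of 189 CPM. In Ndrg1 that mean was carried by oligodendrocyte-like cells, and the median of the other classes was 76.4 CPM. The lowest other class, choroid plexus epithelium-like cells, stood at 14.3 CPM. That lies within the interval of Ndrg1 in melanoma-like cells (12.2 to 15.5 CPM), so these classes did not differ beyond counting. Bnip3, a mitophagy receptor, stood at 30.2 CPM against a mean of 27.9 CPM. Higd1a, a mitochondrial protein induced by hypoxia, was the only one of the 8 that was higher, at 187 CPM against 41.5 to 113 CPM.

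**Figure D1:**
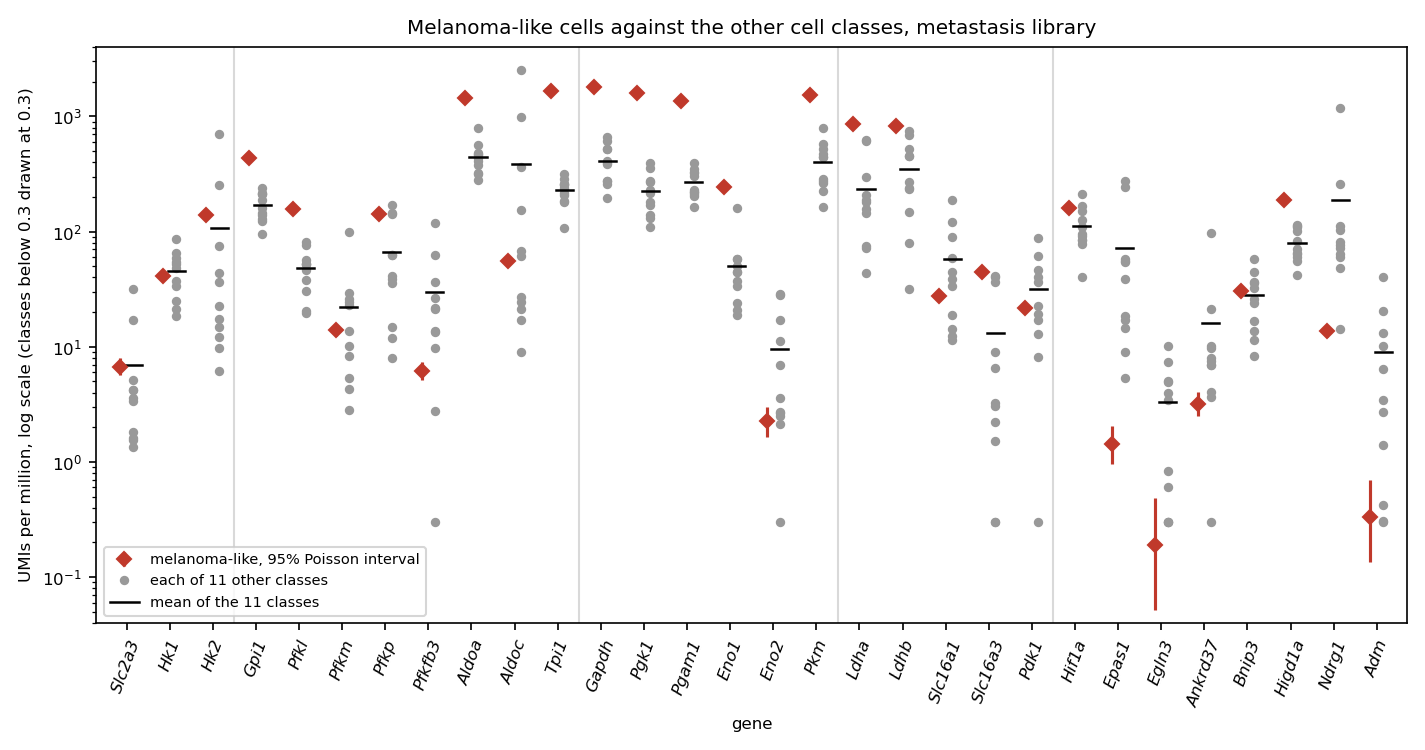
Level in CPM (log scale) of each of the 30 genes in the metastasis library, in melanoma-like cells (diamonds, with 95% Poisson intervals) and in each of the 11 other classes (grey points, with their mean as a bar); vertical lines part the roles. Tpi1, Gapdh, Pgk1, Pgam1 and Pkm sit above all grey points, and Epas1, Egln3, Ankrd37, Ndrg1 and Adm sit low.

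The 18 melanoma-like cells of the naive library had close levels of the same genes: Tpi1 at 1627 CPM, Gapdh at 1771 CPM, Pgk1 at 1555 CPM, Ldha at 785 CPM and Hk2 at 126 CPM. The origin of these 18 cells in a brain labelled naive is not given by the labels. Among single melanoma-like cells of metastasis, the glycolytic enzymes were nearly everywhere: a UMI of Pkm was found in 100% of the 681 cells, of Tpi1 in 99.0% and of Ldha in 97.1%. The 10th, 50th and 90th percentiles over cells were 762, 1552 and 2590 CPM for Tpi1 and 315, 777 and 1499 CPM for Ldha. Thinned to 1000 UMIs per cell, 54.5% of melanoma-like cells had a UMI of Ldha, against 4.66% of oligodendrocyte-like cells (11.7% without thinning), which can hold free RNA. Ankrd37 was found in 8.52% of melanoma-like cells, Epas1 in 4.26%, Adm in 0.881% and Egln3 in 0.587%, at a median depth of 29984 UMIs per cell.

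Of 35 other glycolysis genes, 28 could be compared, and 4 were higher and 13 lower in melanoma-like cells. Of 35 other hypoxia genes all could be compared, and 6 were higher and 14 lower. Over all genes, 12.6% were higher and 42.6% lower. The largest ratios upward were those of Eno3, the muscle enolase (32.9 CPM against a mean of 4.34 CPM), and Mif, a cytokine that hypoxia induces (1675 CPM against 265 CPM). They were followed by Slc16a7, a pyruvate and lactate transporter (53.8 CPM against 14.0 CPM), and Eno1b, the enolase copy whose reads cannot be fully told from Eno1 (6.46 CPM against 1.79 CPM). Among the largest downward was that of Vldlr, a lipoprotein receptor (2.06 CPM against 59.7 CPM). Tmem45a, a membrane protein, and Lox, a collagen cross-linking enzyme, gave 0 UMIs in melanoma-like cells and were at least 76.5-fold and 45.4-fold lower, set against a floor of 3 UMIs over the class. The median log2 ratio was -0.60 in the first list and -0.52 in the second, near the -0.62 of all genes.

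With melanoma-like cells set aside, 10 of the 17 genes they did not lead had the same highest class in both libraries: astrocyte-like, microglia-like, choroid plexus epithelium-like, endothelial-like or oligodendrocyte-like. Ependymal-like, fibroblast-like and macrophage/monocyte-like cells of metastasis were highest for no gene of the 30. Astrocyte-like cells led Aldoc, at 2549 CPM in metastasis (interval 2421 to 2682) and 2694 CPM in naive. Olfactory ensheathing-like cells came next with 984 CPM in metastasis against 1070.0 CPM in naive, and the remaining classes of the metastasis library stayed at or below 366 CPM. Astrocyte-like cells also led Pfkm (98.2 CPM in metastasis against 131 CPM in naive) and Pfkp (169 and 142 CPM). In Pfkp, choroid plexus epithelium-like cells followed at 145 and 130 CPM, with overlapping intervals in both libraries. Microglia-like cells led Hk2, at 698 CPM in metastasis against 600.1 CPM in naive, followed by macrophage/monocyte-like cells at 252 and 186 CPM. Thinned to 1000 UMIs, 46.6% of microglia-like cells of metastasis and 43.6% of those of naive had a UMI of Hk2 (61.8% and 59.6% unthinned), against 0.966% and 0.307% of oligodendrocyte-like cells. Microglia-like cells also led Pfkfb3 (119 and 74.8 CPM) and Pdk1 (88.5 and 78.3 CPM). Their intervals overlapped those of fibroblast-like cells for Pdk1 in both libraries, and those of macrophage/monocyte-like cells for Pfkfb3 in naive.

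Oligodendrocyte-like cells led Ndrg1, a gene needed for the upkeep of myelin, at 1189 CPM in metastasis against 1255 CPM in naive, and Bnip3 at 58.2 and 54.6 CPM. Vessel classes led the hypoxia factors: Epas1 stood at 242 CPM in endothelial-like and 273 CPM in mural-like cells of metastasis, and at 958 and 493 CPM in naive, and its intervals in these 2 classes overlapped in metastasis. Ankrd37 was highest in endothelial-like cells of both libraries, at 97.1 CPM in metastasis against 81.4 CPM in naive. Slc16a1 was highest in olfactory ensheathing-like cells of metastasis (189 CPM) and in endothelial-like cells of naive (265 CPM). Hk1 ran from 18.5 CPM in macrophage/monocyte-like to 85.3 CPM in choroid plexus epithelium-like cells of metastasis, and its first and second class did not differ beyond their intervals. Egln3, Adm and Slc2a3 stayed at or below 40.5 CPM in every class of metastasis. Eno2 was highest in choroid plexus epithelium-like cells (28.9 CPM in metastasis against 26.6 CPM in naive). Neuroblast-like cells followed in Eno2 at 28.3 and 20.6 CPM, with overlapping intervals in both libraries.

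**Figure D2:**
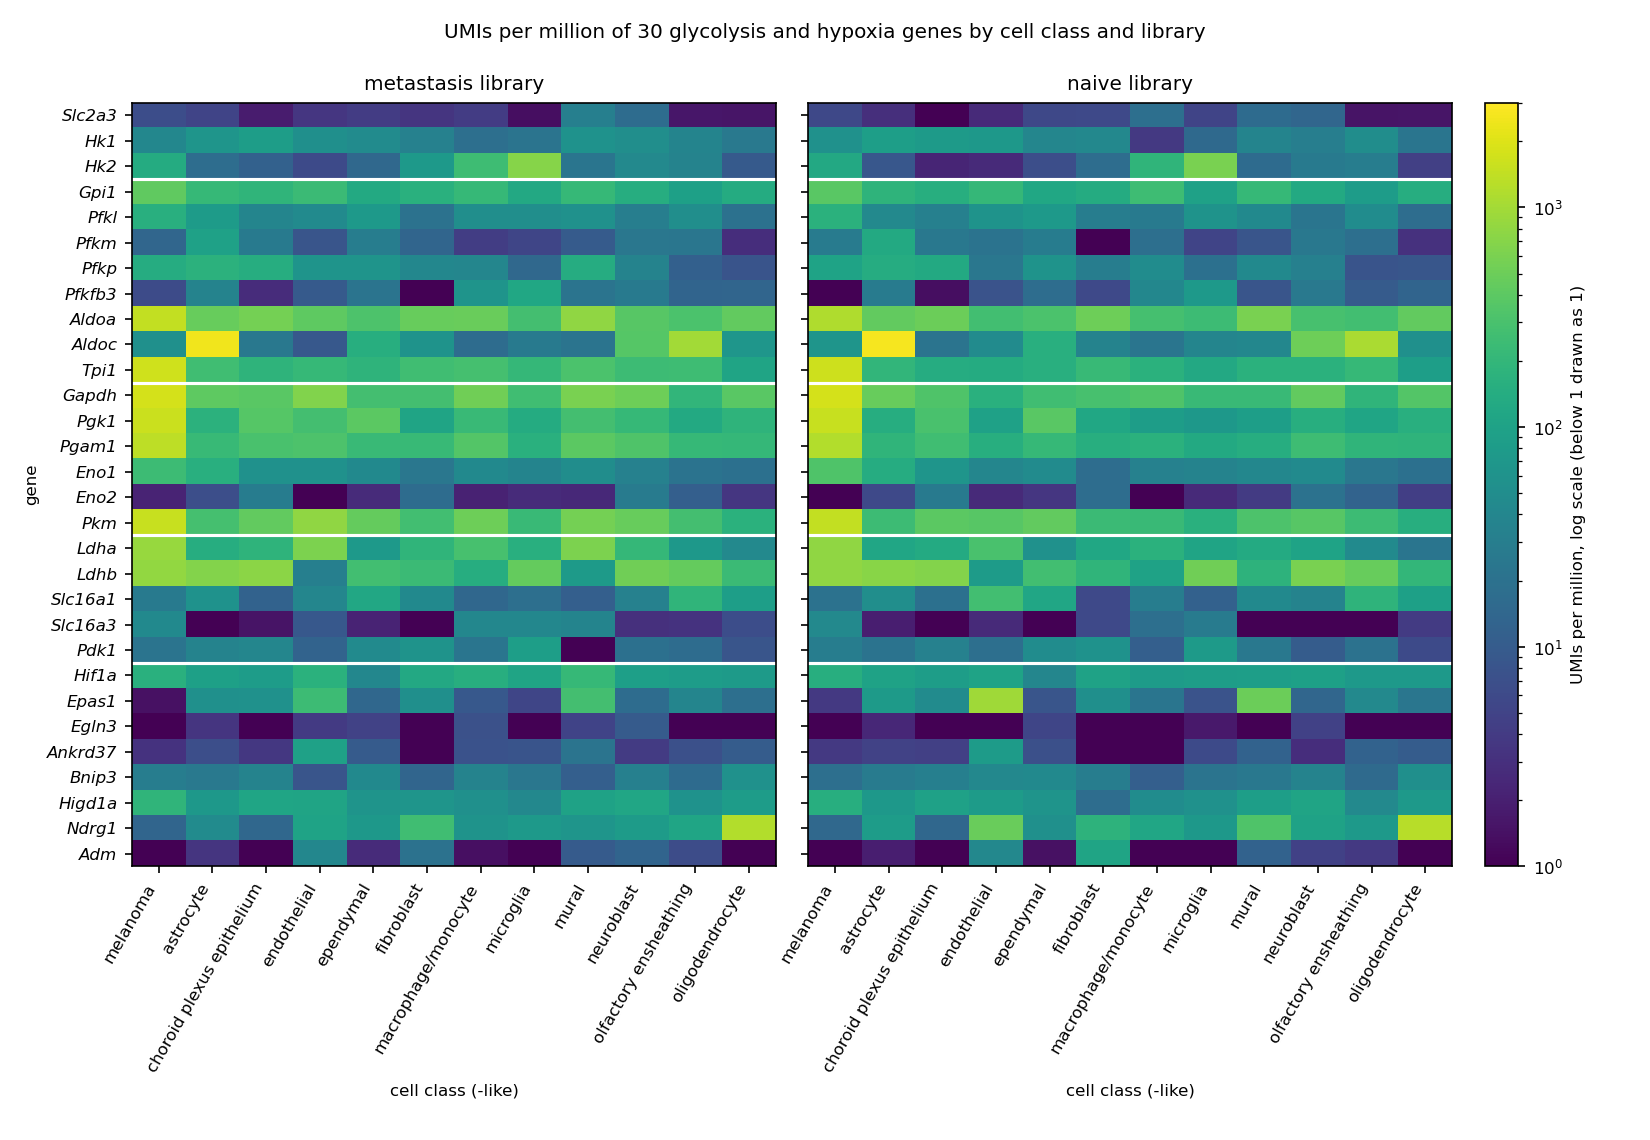
Level in CPM (colour, log scale) of the 30 genes (rows, in the order of their roles, parted by white lines) in 12 cell classes (columns), metastasis library on the left and naive library on the right; the melanoma-like column of the naive library rests on 18 cells. The bright block of glycolytic enzymes in melanoma-like cells, Aldoc in astrocyte-like, Hk2 in microglia-like and Ndrg1 in oligodendrocyte-like cells stand out in both libraries.

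Pairs of related genes divided the classes in the same way. Aldoc made up 84.5% of the UMIs of Aldoc and Aldoa in astrocyte-like cells of metastasis (interval 82.7% to 86.1%) and 86.2% in naive, but 3.76% in melanoma-like cells of metastasis. Ldhb made up 82.6% of the lactate dehydrogenase UMIs in astrocyte-like cells of metastasis and 86.2% in naive, 48.8% in melanoma-like cells of metastasis and 4.88% in endothelial-like cells of metastasis. Hk2 made up 97.0% of the UMIs of Hk2 and Hk1 in microglia-like cells of metastasis and 97.5% in naive, against 20.8% and 8.82% in astrocyte-like cells. In melanoma-like cells of metastasis the share of Hk2 was 77.1% (interval 75.7% to 78.4%). Epas1 made up 59.3% of the UMIs of Epas1 and Hif1a in endothelial-like cells of metastasis and 90.1% in naive, against 0.888% in melanoma-like cells of metastasis. The endothelial-like cells fell in different clusters, and in cluster 16, found in both libraries, Epas1 had 204 UMIs beside 23 of Hif1a in metastasis and 365 beside 40 in naive. The 2 genes of a pair can be captured with different efficiency, so only the same share across classes is compared.

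**Figure D3:**
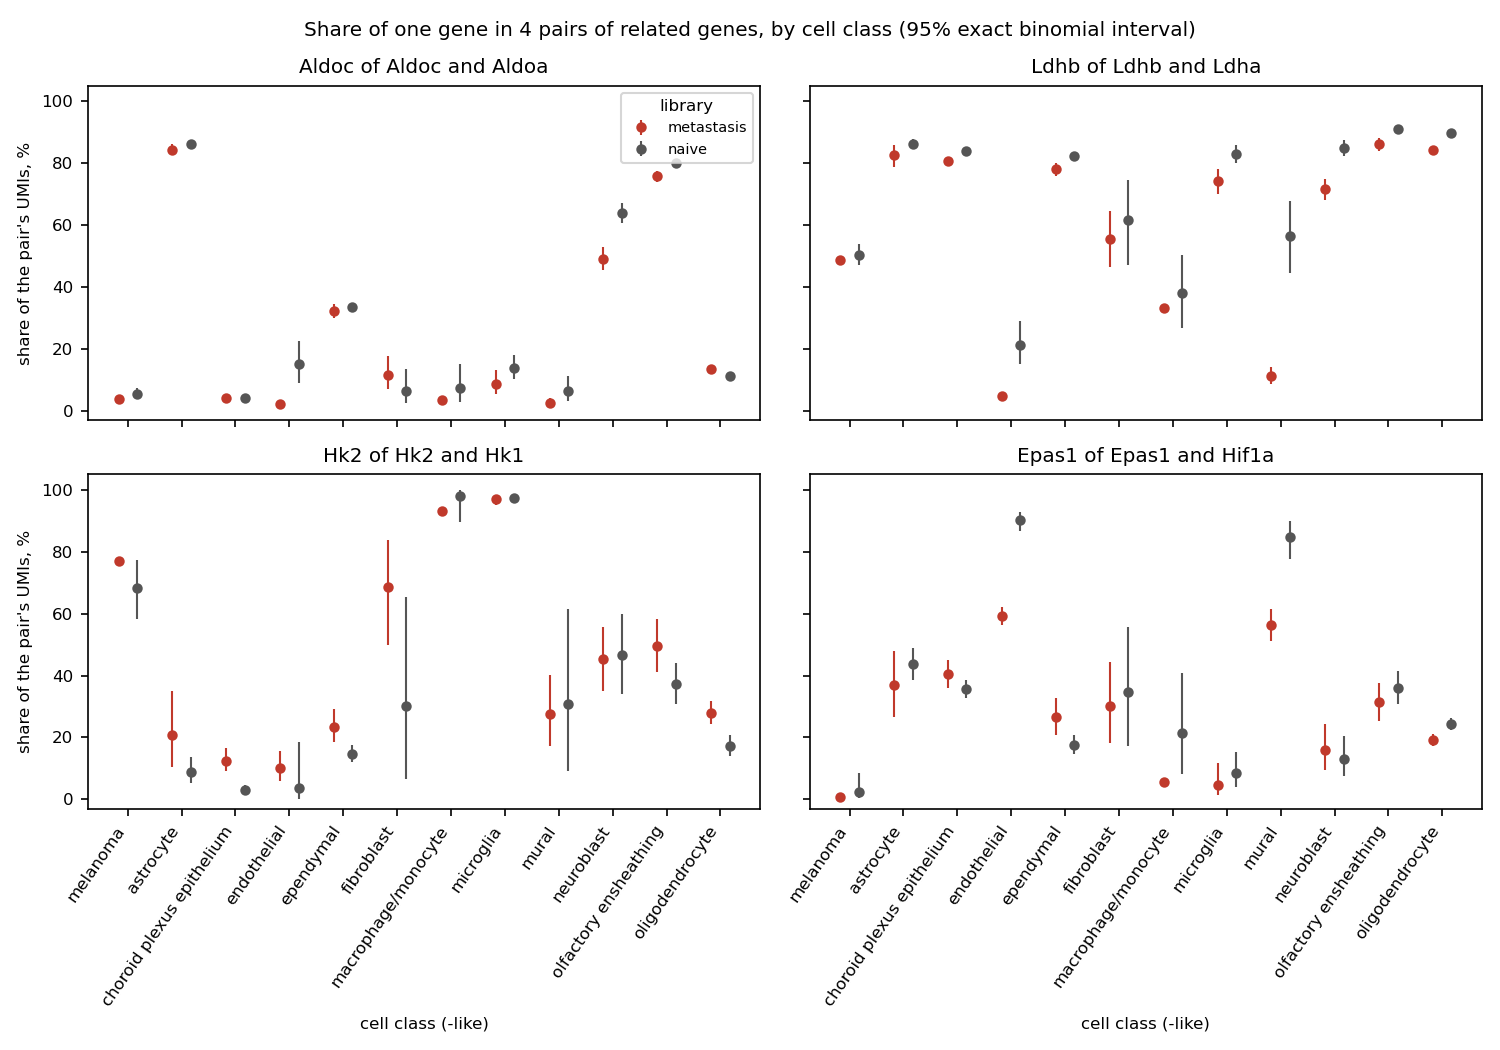
Share of the first gene among the UMIs of a pair, in percent, for 4 pairs of related genes by cell class, metastasis left of naive, with exact 95% binomial intervals. The Aldoc share is highest in astrocyte-like and olfactory ensheathing-like cells, and the Hk2 share in microglia-like and macrophage/monocyte-like cells. The Ldhb and Epas1 shares of vessel cells are lower in metastasis than in naive, where endothelial-like cells of the libraries fell in different clusters.

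In astrocyte-like cells, the class the enrichment aimed at, no gene of the 30 was at least 2-fold higher or lower in metastasis than in naive among the 24 with enough UMIs; over all 10446 genes compared, 2.48% were higher and 3.79% lower. The median log2 ratio was 0.16 over the 24 genes and 0.03 over all genes. Aldoc stood at 2549 CPM in metastasis against 2694 CPM in naive, a log2 ratio of -0.08 (interval -0.16 to 0.00). Gapdh stood at 408 and 473 CPM (log2 ratio -0.21), Pkm at 286 and 246 CPM (0.22), Ldhb at 688 and 718 CPM (-0.06), and Hif1a at 94.8 and 100.1 CPM (-0.08). For these genes the intervals kept any difference of counting below 2-fold. Hk2, with 17.2 CPM in metastasis against 8.70 CPM in naive, lay nearest to the limit at a log2 ratio of 0.99, but it rested on 10 and 18 UMIs and its interval ran from -0.29 to 2.18. Pfkl followed with 81.0 and 43.0 CPM (0.91, interval 0.37 to 1.44), then Pdk1 with 36.2 and 20.8 CPM (0.80) and, downward, Ndrg1 with 48.3 and 84.1 CPM (-0.80).

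The free RNA of the metastasis library, read from barcodes with 10 to 100 UMIs, was richer in Ldha, Tpi1 and Hk2. Ldha had 319 CPM there against 88.4 CPM in naive, Tpi1 553 against 228 CPM and Hk2 46.7 against 7.37 CPM. These levels of metastasis were above those of its astrocyte-like cells, at 145 CPM for Ldha, 259 CPM for Tpi1 and 17.2 CPM for Hk2. Among the classes of metastasis, Ldha and Tpi1 were highest in melanoma-like cells. Hk2 was highest in microglia-like cells (698 CPM, against 138 CPM in melanoma-like cells). From which cells the free RNA came was not tested. With that free RNA subtracted, the median log2 ratio in astrocyte-like cells became -0.08, and 2 genes were then higher and 1 lower. Of the other glycolysis genes, 17 could be compared in astrocyte-like cells and of the other hypoxia genes 26, and none passed 2-fold in either direction. The microglia-like, neuroblast-like and olfactory ensheathing-like cells had no gene of the 30 past 2-fold either, of 23, 26 and 27 compared; over all genes, 2.26% and 2.37% (microglia-like), 3.71% and 2.85% (neuroblast-like) and 2.41% and 1.19% (olfactory ensheathing-like) were higher and lower.

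In endothelial-like cells genes were past 2-fold in both directions. In metastasis 7 of 26 genes were higher (Pfkp, Gapdh, Pgk1, Pgam1, Pkm, Ldha and Slc16a3), against 17.5% of all 10024 genes compared, and 7 were lower (Pfkm, Aldoc, Ldhb, Slc16a1, Epas1, Bnip3 and Ndrg1), against 17.2%. The class was not made of the same cells in both libraries. In metastasis 152 of its 205 cells fell in cluster 17, led by Igfbp3 and Plvap, a marker of vessels without a barrier, and the other 53 in cluster 16, while all 115 naive cells fell in cluster 16, led by Ly6c1 and Cldn5. Plvap stood at 506 CPM in cluster 17 and gave no UMI in cluster 16 of either library, whereas Cldn5, a tight-junction gene of the barrier, stood at 658 CPM in cluster 17 and at 7759 CPM (metastasis) and 7863 CPM (naive) in cluster 16. Within cluster 16, none of the 19 genes compared was past 2-fold in either direction, over a background of 2.75% higher and 4.57% lower.

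Slc16a3 rested on 25 UMIs in metastasis and 1 in naive, Pfkm on 23 in metastasis and 8 in naive, and the intervals of both log2 ratios included 0. Most of the 14 genes followed the cluster. Gapdh stood at 695 CPM in cluster 17, against 207 CPM in cluster 16 of metastasis and 160.2 CPM in cluster 16 of naive. Ldha stood at 642 CPM in cluster 17, against 264 and 299 CPM in cluster 16, and Pgk1 at 288 CPM against 98.2 and 97.1 CPM. The lower genes were the reverse: Epas1 stood at 182 CPM in cluster 17 against 1054 and 958 CPM, Ndrg1 at 68.9 against 553 and 488 CPM, and Slc16a1 at 26.6 against 207 and 265 CPM. Ankrd37 did not follow either pattern, with 95.9 CPM in cluster 17 against 114 and 81.4 CPM. Markers of red blood cells summed to 1384 CPM in endothelial-like cells of metastasis and 16057 CPM in those of naive, and the 9 choroid plexus markers to 3933 and 11930 CPM. Their part in the ratios was not tested.

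**Figure D4:**
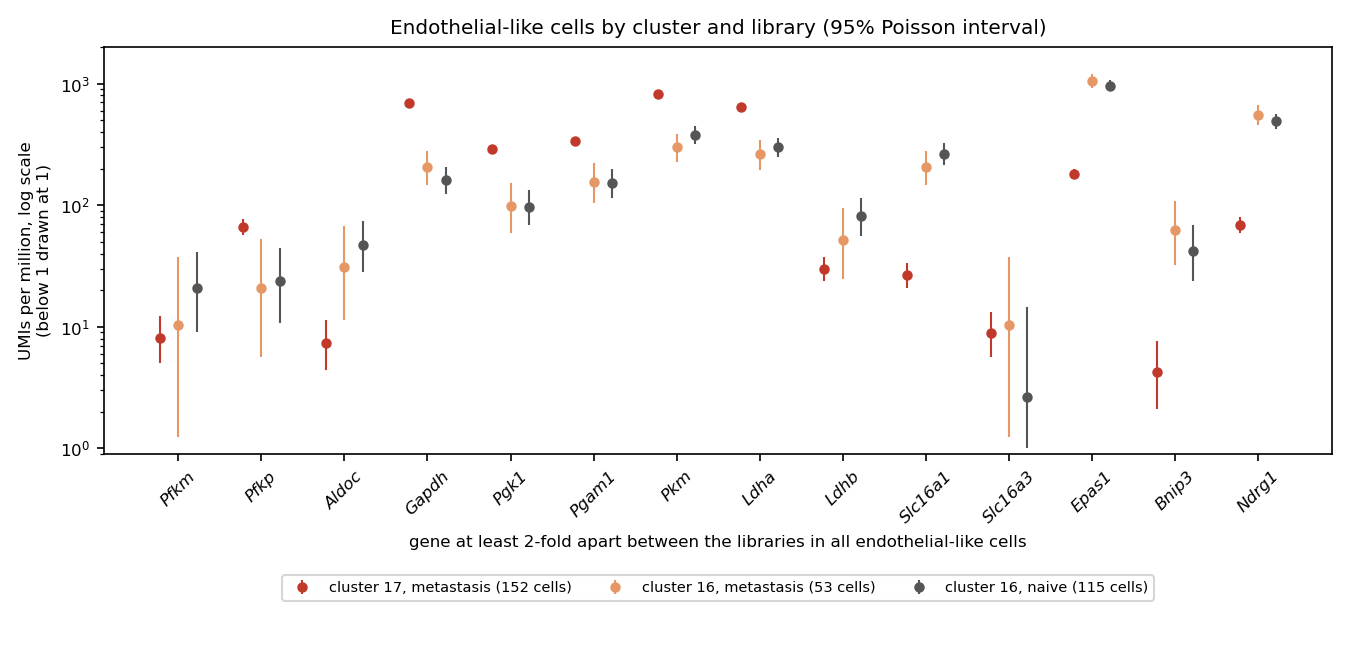
Level in CPM (log scale) of the 14 genes that differed at least 2-fold between the libraries in endothelial-like cells, for cluster 17 of metastasis, cluster 16 of metastasis and cluster 16 of naive, with 95% Poisson intervals. The cells of cluster 16 lie close together in both libraries, while Gapdh, Pgk1, Pgam1, Pkm and Ldha are higher and Slc16a1, Epas1, Bnip3 and Ndrg1 lower in cluster 17.

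Of the other glycolysis genes in endothelial-like cells, none of 12 was higher and 4 were lower, and of the other hypoxia genes 4 of 27 were higher and 6 lower. Over all genes in this class, 17.5% were higher and 17.2% lower. Bsg, the partner protein of the lactate transporters, stood at 1533 CPM in metastasis against 12854 CPM in naive, and Slc2a1, the glucose transporter of the barrier, at 199.97 and 1321 CPM. P4ha2, a collagen hydroxylase (6.09 and 26.3 CPM), and Gbe1, the glycogen branching enzyme (21.5 and 78.8 CPM), followed. The largest ratios upward were Loxl2, a matrix enzyme, with 35.5 and 2.63 CPM (1 UMI in naive, log2 ratio 3.76, interval from 1.24), and Stc1, a secreted glycoprotein, with 67.4 and 10.5 CPM. Mif (224 and 81.4 CPM) and Hilpda, a lipid droplet protein (39.1 and 18.4 CPM), came after them. Within cluster 16 none of 7 other glycolysis genes was past 2-fold, and of 14 other hypoxia genes Ddit4 was higher (82.7 and 39.4 CPM) and Plod1, a collagen lysyl hydroxylase, lower (36.2 and 73.5 CPM), with intervals of the log2 ratio that included 0. In all endothelial-like cells Ddit4 was lower (18.6 and 39.4 CPM).

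Mural-like cells, the pericytes and smooth muscle of vessels, had 7 of 23 genes higher in metastasis (Pfkp, Gapdh, Pgk1, Pgam1, Ldha, Slc16a3 and Hif1a), against 22.7% of all 7172 genes compared, and 3 lower (Ldhb, Slc16a1 and Ndrg1), against 16.3%. Ldha stood at 621 CPM in metastasis against 134 CPM in naive (log2 ratio 2.21, interval 1.70 to 2.76). Pgk1 stood at 271 and 89.6 CPM, Gapdh at 607 and 224 CPM, and Hif1a at 211 and 89.6 CPM. Slc16a3 gave 29 UMIs in metastasis and none in naive, at least 2.99-fold higher against a floor of 3 UMIs over the class. Ndrg1 stood at 64.3 CPM in metastasis against 326 CPM in naive, and Ldhb at 79.5 and 175 CPM. Epas1, which also marks these cells, stood at 273 and 493 CPM, within 2-fold.

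The make-up of mural-like cells differed too, though they formed 1 cluster with 134 cells in metastasis and 103 in naive. All 9 mural markers were found in both libraries, but their sum was 17412 CPM in metastasis against 25509 CPM in naive. Myh11, a smooth muscle gene, stood at 342 and 1972 CPM, Vtn, a pericyte gene, at 2218 and 5460.3 CPM, and Rgs5, another, at 5172 and 2567 CPM. Fibroblast markers summed to 1441 CPM in metastasis against 232 CPM in naive, with Col1a1 at 296 and 12.2 CPM, and choroid plexus markers to 4128 and 30892 CPM. The median depth was 4040 UMIs per cell in metastasis and 1563 in naive. The part of these shifts in the ratios was not tested, but with a limit of 500 UMIs per barcode the log2 ratio of Gapdh was 0.16, that of Hif1a 0.07, that of Pfkp 0.67, that of Pgk1 1.16 and that of Ndrg1 -0.34.

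Of the other hypoxia genes in mural-like cells 6 of 23 were higher and 4 lower, and of the other glycolysis genes 1 of 9 was higher and 1 lower. Over all genes in this class, 22.7% were higher and 16.3% lower. Stc1 stood at 102 CPM in metastasis against 8.15 CPM in naive, Loxl2 at 198 and 24.4 CPM, Pdk3, a kinase of pyruvate dehydrogenase, at 27.8 and 8.15 CPM (interval of the log2 ratio from -0.26), and Plod2, a collagen lysyl hydroxylase, at 92.1 and 32.6 CPM. Downward, Ddit4, a stress-induced inhibitor of growth signalling, stood at 11.4 and 85.6 CPM, Vldlr at 10.1 and 52.97 CPM, Errfi1, a feedback inhibitor of growth factor receptors, at 56.8 and 281 CPM, and Pygb, the brain glycogen phosphorylase, at 20.2 and 69.3 CPM.

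Macrophage/monocyte-like cells had 8 of 26 genes higher in metastasis (Hk1, Pfkl, Pgk1, Pgam1, Pkm, Slc16a3, Pdk1 and Bnip3), against 7.49% of all 11251 genes compared, and 4 lower (Slc2a3, Pfkm, Slc16a1 and Epas1), against 16.5%. The naive side was thin, with 90 cells against 1693, so most of the ratios had wide intervals. Pgk1 stood at 229 CPM in metastasis against 85.6 CPM in naive (log2 ratio 1.42, interval 0.83 to 2.08), Pkm at 518 and 231 CPM (1.17, interval 0.81 to 1.55), and Pgam1 at 351 and 167 CPM (1.07). Bnip3 stood at 36.0 and 11.2 CPM on 335 and 3 UMIs (1.69, interval 0.13 to 3.97). Hk1 and Pdk1 rested on 1 and 3 UMIs in naive, and the intervals of Hk1, Pfkl, Slc16a3 and Pdk1 reached below 0. The lower genes were thin in naive too. Slc2a3, Pfkm, Slc16a1 and Epas1 had 4, 2, 8 and 5 naive UMIs in cluster 0 and 1, 3, 0 and 1 in cluster 1. The intervals of Slc16a1 and Epas1 reached above 0. Hk2, the hexokinase of these cells, stood at 252 and 186 CPM, within 2-fold.

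Here as well different clusters held most of the class: cluster 1, led by Ms4a7 and holding Spp1 and Lpl among its leading genes, had 1322 cells in metastasis and 26 in naive, and cluster 0, led by class II genes such as H2-Eb1, had 371 and 64. Within cluster 0 alone, Pgk1 stood at 215 CPM in metastasis against 73.3 CPM in naive, Pkm at 487 and 241 CPM, and Hif1a at 142 and 57.6 CPM. In that cluster 7 of 23 genes were higher and none lower, against 10.9% and 7.45% of all 7378 genes compared. Besides Pgk1, Pkm and Hif1a these were Pfkl, Slc16a3, Bnip3 and Eno1, which rested on 1, 2, 2 and 5 naive UMIs. In the whole class, 2 of 18 other glycolysis genes were higher and 2 lower, and of the other hypoxia genes 5 of 26 were higher and 5 lower. Over all genes in the class, 7.49% were higher and 16.5% lower. Hilpda had 371 UMIs in metastasis and 1 in naive (39.8 and 3.72 CPM, interval of the log2 ratio from 0.93), Vegfa, the vessel growth factor, 174 and 1 (18.7 and 3.72 CPM, interval of the log2 ratio from -0.17), and Hk3, a hexokinase of myeloid cells, 608 and 6 (65.3 and 22.3 CPM). Car12, a carbonic anhydrase (3.22 and 14.9 CPM), Errfi1 (24.5 and 78.2 CPM), Pfkfb4, a relative of Pfkfb3 (205 and 15 UMIs, log2 ratio -1.34), and Ddit4 (5.90 and 14.9 CPM) had the lowest ratios.

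**Figure D5:**
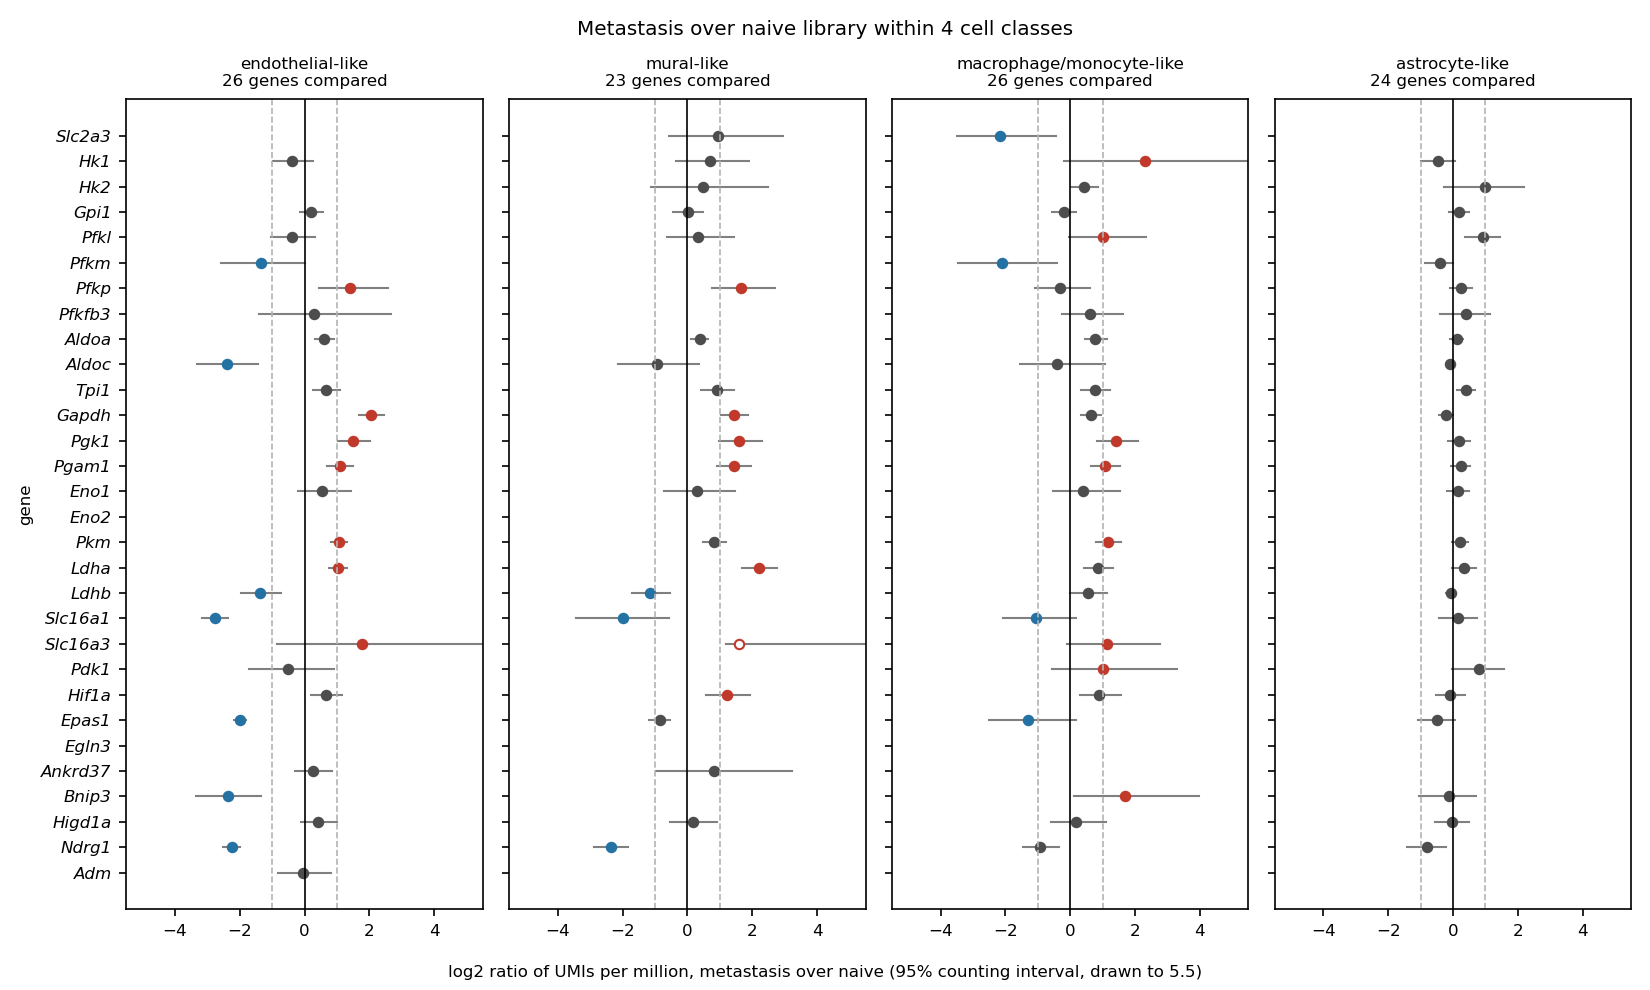
Log2 ratio of CPM, metastasis over naive, for the 30 genes in 4 cell classes, with 95% counting intervals; red and blue points were at least 2-fold higher and lower, an open point is a bound against 0 UMIs, and genes with too few UMIs have no point. The astrocyte-like points stay within the dashed 2-fold lines, while the lower glycolysis genes lie to the right in endothelial-like, mural-like and macrophage/monocyte-like cells.

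In the remaining classes few genes were past 2-fold, and most of those calls were of Hk2. Hk2 was higher in choroid plexus epithelium-like cells (12.2 CPM in metastasis against 2.30 CPM in naive, 1 of 25 genes, against 3.6% of all genes), in oligodendrocyte-like cells (9.72 and 4.62 CPM, 1 of 29, against 4.77%) and in fibroblast-like cells (74.7 and 17.7 CPM, on 22 and 3 UMIs). It was also higher in ependymal-like cells (14.7 and 6.85 CPM), beside Slc16a3 (2.21 and 0.838 CPM), 2 of 30 genes against 2.92%. In the free RNA, Hk2 had 46.7 CPM in metastasis against 7.37 CPM in naive. With that free RNA subtracted, the log2 ratio of Hk2 in ependymal-like cells was -1.93, against 1.11 without the subtraction. That in oligodendrocyte-like cells was 0.44. Over the other ways of processing, Hk2 stayed past 2-fold in 10 of 19 for ependymal-like and 16 of 19 for oligodendrocyte-like cells. It did so in 18 of 19 for choroid plexus epithelium-like and 18 of 18 for fibroblast-like cells. Fibroblast-like cells had Higd1a higher as well (64.5 and 17.7 CPM, on 19 and 3 UMIs), 2 of 17 genes against 8.09%, and Adm lower (20.4 and 106 CPM, on 6 and 18 UMIs), 1 gene against 3.29%. In choroid plexus epithelium-like, oligodendrocyte-like and ependymal-like cells no gene of the 30 was lower, against 1.13%, 1.37% and 1.79% of all genes. Ldha stayed just within 2-fold in oligodendrocyte-like cells, at 43.8 CPM in metastasis against 22.6 CPM in naive, with 319 and 88.4 CPM in the free RNA. Taken by cluster, it was 2.47-fold higher in cluster 2, 2.30-fold in cluster 4 and 4.28-fold in cluster 20 (23 UMIs in metastasis and 3 in naive), and 1.90-fold in cluster 3, where Slc16a3 was 2.18-fold higher. Epas1, within 2-fold in all ependymal-like cells, was higher in their clusters 7 (17.4 CPM in metastasis against 8.38 CPM in naive) and 15 (17.6 and 7.30 CPM) and lower in cluster 9 (4.34 and 11.2 CPM, on 4 and 20 UMIs). Of the 70 other glycolysis and hypoxia genes, at most 2 were past 2-fold in any of the classes described in this paragraph or among the microglia-like, neuroblast-like and olfactory ensheathing-like cells.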

How the data were processed

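The deposited files hold raw UMI counts per gene and barcode for 2 libraries, not normalized and not filtered, as their whole numbers and their 6794880 barcodes each show; the gene and barcode files name rows and columns. STARsolo and the GRCm38 build are named in the submitters' processing notes; versions, annotation and settings are not given in the sources used here. Per the labels' protocols, myelin was removed, cells were enriched over anti-ACSA-2 beads and about 10000 cells were loaded on a 10x Chromium 3' chip.

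Limits of 1000 UMIs and 500 genes from below and 20% mitochondrial UMIs from above kept 13745 barcodes in metastasis and 13995 in naive. That exceeds the 10000 cells loaded, so some can be free RNA or debris. The 6% of barcodes with the highest scrublet scores were removed as doublets, 794 and 814. Cells of both libraries were clustered together (scanpy 1.11.5, 2000 variable genes without the 30 genes and the other pathway genes, 30 components, 15 neighbours, Leiden resolution 1). A cluster was named when a marker list had a median log2 ratio of at least 1, 20 CPM added, with 3 or more members at 2-fold. Of several such lists the one with most genes among the 10 leading genes gave the name; with as many there, a second list above 0.5 times the median of the first left the cluster unnamed. So cluster 16 was called endothelial-like (3.69) though the erythrocyte list stood at 4.71, and cluster 9 ependymal-like with 0 markers among its 10 leading genes. These thresholds were set after the clusters were seen. Clusters 6, 18 and 21 stayed unnamed. Of the 20 marker lists, all 165 symbols were in the files.

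UMIs were summed per class and library. Levels have exact Poisson intervals, ratios exact conditional binomial intervals and shares Clopper-Pearson intervals, at 95%. Intervals and floors cover counting error only. Where a class had no UMI of a gene, 3 UMIs stood in, and the ratio is a bound. With 1 library in each group nothing was tested across samples. The interval calculation was checked on simulated counts. Free RNA was the profile of barcodes with 10 to 100 UMIs.

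The 30 genes and the lists of 35 other glycolysis and 35 other hypoxia genes were chosen with earlier results of these data known. All 30 are named; of the other lists, the genes named are up to 4 in each direction with the largest ratios over both lists together, in melanoma-like and astrocyte-like cells and in classes with 3 or more past 2-fold; 1 gene that this rule names is not reported here. Gene copies could take reads of Eno1, Aldoa, Gapdh, Pgk1, Pgam1, Ldha and Ldhb; outside Eno1 the copies in the files held at most 228 UMIs (Aldoa, beside 69308). Promoters were matched by symbol, and 36 of the 40 ended in a GENCODE M21 transcript of their gene. Alternatives varied barcode limits, doublets, clustering, naming, scaling, free RNA, the minimum of UMIs and an added 10 CPM.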

Additional observations from a re-analysis of the deposited data

Results flagged for a closer look

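Bnip3, a mitophagy receptor, differed in opposite directions in 2 classes: its log2 ratio of metastasis over naive was -2.35 in endothelial-like cells (8.24 CPM in metastasis against 42.0 CPM in naive) and 1.69 in macrophage/monocyte-like cells (36.0 and 11.2 CPM). The difference between the classes was not tested. The naive values rest on 16 and 3 UMIs, and in cluster 16 of the endothelial-like cells, the only one present in both libraries, the log2 ratio was 0.56.

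The naive library held 18 melanoma-like cells, although its title names no tumour. None of their barcodes was also a cell of the metastasis library, and the 30 genes made up 1.202% of their UMIs, close to the 1.28% of the melanoma-like cells of metastasis. How they came into that library was not tested.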

How the results depend on the processing

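No paired analysis was possible because each group is 1 library, and for the same reason no library could be left out. The 13 genes highest in melanoma-like cells and the 14 that were higher there than in the mean of the other classes were counted within 1.5 times of these numbers under every alternative run. The 9 lower genes became 4 with 10 CPM added to both sides, where the ratios of Eno2, Slc16a1, Egln3, Ankrd37 and Adm were within 2-fold.

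In astrocyte-like cells, counts of 0 and small medians moved easily. The median log2 ratio of 0.16 was -0.0049 with at least 2000 UMIs per barcode, 0.11 with doublets kept, 0.035 with cells named one by one, 0.092 with median of ratios scaling, and -0.081 and -0.050 with free RNA of barcodes with 10 to 100 and 100 to 300 UMIs subtracted. The number of higher genes was 1 with at most 10% mitochondrial UMIs, with doublets kept, at resolution 2, with the mean of each cell's own CPM and with the second free RNA, and 2 with the first. The number of lower genes was 1 with at least 2000 UMIs and with either free RNA.

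Over the other classes, 28 pairs of class and gene were higher and 15 lower. With at least 2000 UMIs they were 15 and 7, where fibroblast-like, macrophage/monocyte-like, mural-like and neuroblast-like cells had no comparison. Macrophage/monocyte-like cells had none either with at most 10% mitochondrial UMIs and with cells named one by one. The lower pairs were 25 with the first free RNA subtracted, 8 with at least 50 UMIs for a call, and 4 when endothelial-like and macrophage/monocyte-like cells were limited to clusters with 50 cells in both libraries. That last alternative was chosen after seeing the data, as was adding cluster 6 to the ependymal-like cells. It reversed 6 ratios in endothelial-like cells: Pfkp (-0.19), Pkm (-0.34), Ldha (-0.18), Epas1 (0.14), Bnip3 (0.56) and Ndrg1 (0.18). Higd1a in fibroblast-like cells reversed with cells named one by one (-0.55). In ependymal-like cells Hk2 reversed with either free RNA (-1.93 and -0.89) and Slc16a3 with the first (-0.18). Of 1063 recomputed values of the 66 called ratios, 949 were still past 2-fold and 10 reversed. The causes were not tested, except where fewer cells or classes entered.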

Other observations

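Cluster 6, led by the interferon-induced genes Ifit3 and Gbp2 and nearest to the ependymal markers, had 935 cells in metastasis and 5 in naive and was left unnamed. In metastasis its levels lay near those of ependymal-like cells, with Pgk1 at 382 and 397 CPM, Aldoc at 164 and 153 CPM and Ldha at 92.2 and 75.2 CPM. Cluster 21, led by Ccn3 and Slc47a1, had 129 cells in metastasis and 203 in naive. It had a high level of Ndrg1, with 719 CPM in metastasis against 616 CPM in naive, and of Slc16a1, with 309 and 203 CPM. Its level of Egln3 was the highest of any named class or unnamed cluster with at least 50 cells, with 20.8 and 19.8 CPM. These Egln3 levels rested on only 7 and 12 UMIs, and the next named class of metastasis, neuroblast-like cells, stood at 10.1 CPM. Cluster 18, a mixture led by immunoglobulin and neutrophil genes with 161 and 91 cells, had Ldha at 470.2 CPM in metastasis against 205 CPM in naive.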
